A study of Drosophila melanogaster with 24 samples.

Results

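The structural cuticle protein genes of Drosophila were examined in animals lacking the zinc finger insulator protein Su(Hw). They were taken by symbol: every probe with a single gene symbol that starts with Cpr and a digit, Lcp, Ccp84, Acp65, Pcp, Edg78, Edg84, Edg91 or Twdl, and Gasp. This gave 120 probes of 118 genes, of 14444 probes analysed and 11717 genes with a symbol of their own on the arrays. Transcript levels had been measured on 24 two-colour long oligonucleotide arrays, 12 with whole animals collected as soft white pre-pupae (called larvae in the study) and 12 with wing imaginal discs dissected at that stage, the epithelia that later form the wing. Each tissue had 4 arrays of each of 3 genotypes. In the null, su(Hw)/Df, a chromosome with the null allele su(Hw)v and the transgene cas X/K (in the study's text P [CaS X/K5.3]) lay over the deletion Df(3R)ED5644. The heterozygote su(Hw)/+ carried the su(Hw)v chromosome with its transgene and Df/+ carried the deletion, each over a chromosome from Oregon R. Other genes inside the deletion were thus also at reduced dose in su(Hw)/Df and in Df/+. Animals of all 3 genotypes were picked by lacking the Tubby marker of the TM6B balancer. Every array set 1 genotype against a single pool of wild-type (Oregon R) RNA of the same tissue, with the genotype RNA in Cy3 on 2 arrays of each group and in Cy5 on the other 2. All values are log2 ratios of genotype to pool, so that a value of 1 is a doubling. The samples of a group are numbered 1 to 4, each an RNA extract of several animals or discs.

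Insect cuticle is a secreted sheet of chitin fibres set in protein, laid down by the epidermis and by the lining of the tracheae, foregut and hindgut. Most cuticle proteins belong to the Cpr family, which binds chitin through the Rebers-Riddiford consensus, and the genes are switched on in brief waves that follow the pulses of the moulting hormone ecdysone. At the white pre-pupal stage the last larval cuticle is becoming the puparium and the epidermis beneath it is preparing the pupal cuticle, so that the levels of these transcripts are known to change within hours. Grouped by symbol, which does not follow protein family, 69 probes had Cpr symbols. The Tweedle genes, which encode a separate class of body-shape cuticle proteins, had 27. Larval Lcp symbols had 12, among them Lcp1Psi and Lcp65APsi, whose symbols mark pseudogenes. The Ccp84 genes of 1 cluster on chromosome arm 3R had 6. The pupal gene Pcp and the ecdysone-dependent genes Edg78E, Edg84A and Edg91 together had 4. The adult gene Acp65Aa had 1, as did Gasp, a chitin-binding protein of the tracheal lining and other cuticles. By arm, 45 probes were of genes on 3L, 35 on 3R, 25 on 2R, 8 on X and 7 on 2L. In gene order, 81 of the 118 genes lay in 14 runs of 3 or more neighbouring members with at most 2 other genes between neighbours.

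The targeted gene was low in the null on every array. The su(Hw) probe read from -3.36 to -2.19 in su(Hw)/Df larvae, against -0.86 to -0.28 in su(Hw)/+ and -0.53 to -0.07 in Df/+, and the difference from the mean of the heterozygotes was -2.48 (SE 0.22, adjusted p = 5.71e-05, limma). In wing discs the same difference was -1.78 (SE 0.29, adjusted p = 0.0213, limma), a call lost in 6 of 12 fits without 1 array (without su(Hw)/Df replicate 1 or 4, su(Hw)/+ replicate 1 or 3, or Df/+ replicate 3 or 4, highest adjusted p 0.131) and against su(Hw)/+ alone (0.0638) or Df/+ alone (0.0801). Arrays held values for 63.1 to 80.8% of all probes in larvae and 34.4 to 77.2% in discs. Of the disc arrays 3 were sparse: replicate 2 of the null and of su(Hw)/+, and replicate 4 of Df/+ (34.4, 41.9 and 44.6%). Wing disc markers (among them vg, nub and ap) had a median of 12 of 12 values in discs, and none of these or of the epidermis and tracheal markers was called against the heterozygotes in either tissue (10 and 4 tested in discs, 7 and 5 in larvae). Over all probes 2.84% were called in larvae and 0.0901% in discs, so counts of 0 in such short lists say little. Against the heterozygotes in larvae, 1 of 6 midgut digestive genes tested rose and 3 fell (median -0.86), while 0 of 6 fat body (median 0.39), 0 of 8 muscle (0.29) and 0 of 5 haemocyte markers (0.27) were called. Against the pool in su(Hw)/Df larvae more markers were called. Higher were 5 of 6 fat body (median 1.03), 4 of 8 muscle (0.49) and 4 of 7 haemocyte markers (1.14), the last with 1 lower. Of 6 midgut genes 2 were higher and 4 lower (median -1.22). Of 5 epidermis and tracheal markers 1 was higher, and of 9 wing disc markers 1. Over all probes 14.5% were higher and 13.2% lower. The part of tissue makeup in the cuticle values was not tested. In such bulk samples fewer cells of a type and less RNA per cell cannot be told apart.

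Most cuticle probes gave few values. In larvae the 120 probes had a value on a median of 3 of 12 arrays, against 11 over all probes, and 12.5% of them had all 12 values, against 44.5% of all probes. In wing discs the median was 3 against 7, and 4.17% had all 12 values, against 23.1%. Only Cpr49Ag, Cpr78E and 1 of the 2 probes of Cpr49Ac had a value on all 24 arrays, and Cpr76Bc and Lcp65APsi had none. The authors' notes count the slides that passed quality filters, and spots without a value are left out of every mean here, so a missing value is not read as absence of the transcript.

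**Figure D1:**
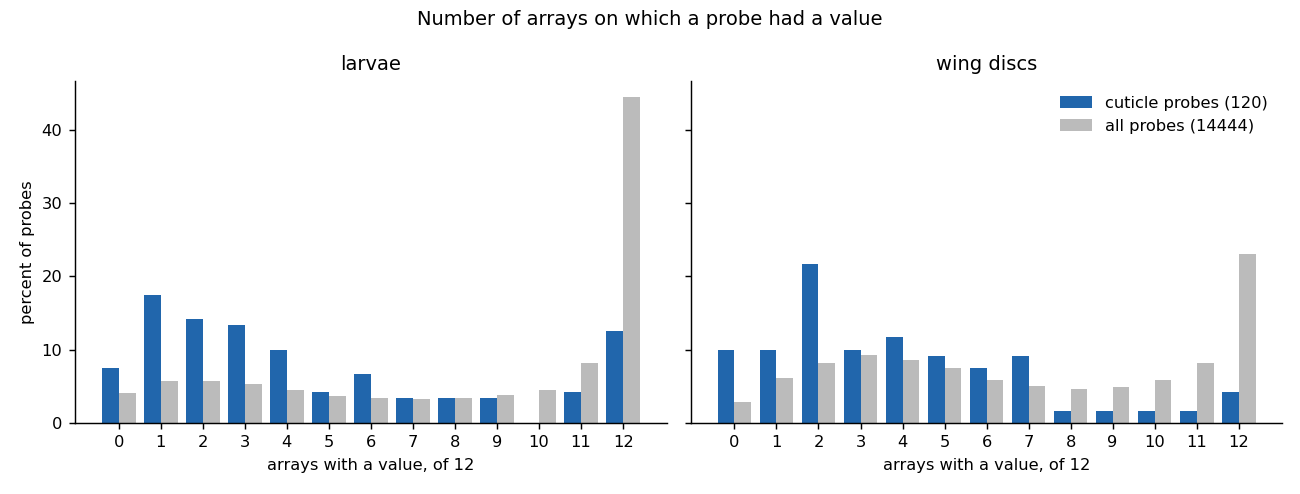
Share of probes (percent) by the number of arrays with a value, out of 12, for the 120 cuticle probes (blue) and all 14444 probes (grey), in larvae (left) and wing discs (right). The most common number for cuticle probes is 1 array in larvae (17.5%) and 2 in discs (21.7%), while all probes peak at 12 in both tissues.

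The classes differed in how often they were measured. At least 6 of 12 values were present for 26 of 69 probes with Cpr symbols in larvae and 24 in discs, and for 5 of 27 Tweedle probes in each. Of 12 larval Lcp probes, 6 had as many in larvae and 2 in discs (Lcp65Aa and the pseudogene Lcp1Psi). The 6 Ccp84 probes had 0 to 4 values in larvae and 1 to 4 in discs. Gasp had 11 in larvae and 12 in discs. Values on 8 or more larval arrays but 2 or fewer disc arrays were found for 7 probes (Cpr66Cb, Cpr78Ca, Edg91, Lcp65Ab2, Lcp65Ac, Lcp9 and Twdlalpha), which is 5.83% of the members beside 4.81% of all probes. The opposite pattern was found for 0 members and 0.755% of all probes. In larvae the members gave 186 values in the null, 183 in su(Hw)/+ and 186 in Df/+, close to even. In discs they gave 165 in the null, 120 in su(Hw)/+ and 193 in Df/+.

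The first question was whether the null differed from its heterozygotes, which share its chromosomes. In larvae 3 Cpr genes fell in the null, relative to the mean of both heterozygotes, and no cuticle gene rose. Of the 120 probes 21 had the 3 values per genotype needed for the test, and 3 were called (adjusted p under 0.05 over all 8197 probes tested, limma). Over all probes 2.84% were called in either direction, 1.09% higher and 1.76% lower. The median difference over the 21 members was -0.12, with 9 above and 12 below 0, beside 0.02 over all probes. The median SE was 0.25 for the members and 0.20 for all probes. In discs the same comparison gave 0.23 for both. An SE also depends on how many values a probe had.

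Cpr49Ag, a member of the chitin-binding Cpr family in a run of 7 such genes on 2R, was the clearest case. Its larval ratios were -1.94, -2.04, -1.99 and -1.996 in su(Hw)/Df, against -0.35, -0.72, -0.65 and -0.72 in su(Hw)/+ and -0.67, -0.73, -0.83 and -0.67 in Df/+. No null array overlapped any heterozygote array, the highest null value lying more than 1 log2 unit below the lowest heterozygote value of -0.83. The difference was -1.32 (SE 0.12, adjusted p = 8.45e-05, limma), a 2.50-fold lower level. Cpr49Ag was the only 1 of the 21 members without overlap, and 3.46% of all probes tested had none. The difference was -1.33 on the Cy3 arrays and -1.31 on the Cy5 arrays, and between -1.34 and -1.28 when single arrays were left out. The 2 heterozygotes did not differ by more than their spread (Df/+ minus su(Hw)/+ -0.11, SE 0.14), but both were below the pool, by 0.61 and 0.72 on the log2 scale with adjusted p = 0.000967 for su(Hw)/+ and 0.000832 for Df/+ (limma).

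Cpr51A and Cpr12A, of the same family on arms 2R and X, fell less and less firmly. Cpr51A read -1.77, -1.26, -1.64 and -2.31 in su(Hw)/Df larvae, against -0.97, -0.996, -0.79 and -1.18 in su(Hw)/+ and -0.69, -1.28, -0.84 and -0.69 in Df/+. The null arrays were the lower ones, but their highest value lay just above the lowest of Df/+. The difference was -0.82 (SE 0.19, adjusted p = 0.0364, limma). All 3 genotypes were below the pool, the null at -1.75, su(Hw)/+ at -0.99 and Df/+ at -0.87.

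Cpr12A read -0.47, -1.02, -0.72 and -1.13 in su(Hw)/Df larvae, against 0.13, -0.03, -0.16 and 0.22 in su(Hw)/+ and -0.51, -0.22, -0.50 and 0.13 in Df/+. The highest null array lay within the range of Df/+, and no null array within that of su(Hw)/+. The difference was -0.72 (SE 0.17, adjusted p = 0.0402, limma), with -0.33 on the Cy3 arrays and -1.10 on the Cy5 arrays. Against su(Hw)/+ alone 2 of 24 members fell (Cpr49Ag and Cpr12A, with 1.98% of all probes called), and against Df/+ alone 1 of 23 (Cpr49Ag, with 1.91%). Of the Cpr51A and Cpr12A calls neither was firm: leaving out single arrays ended the Cpr51A call in 9 of 12 cases and the Cpr12A call in 8 of 12. Without su(Hw)/Df replicate 4 the differences were -0.63 for Cpr51A (adjusted p = 0.0761) and -0.62 for Cpr12A (adjusted p = 0.0899, limma).

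**Figure D2:**
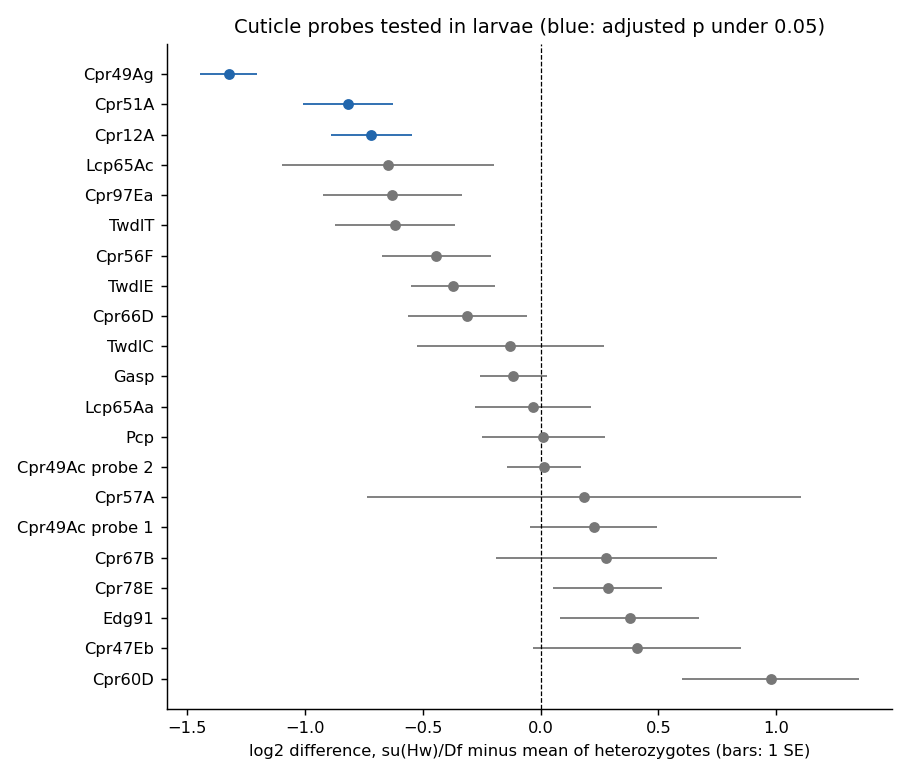
Log2 difference of su(Hw)/Df minus the mean of the heterozygotes in larvae for the 21 cuticle probes tested, ordered by size, with bars of 1 SE. The 3 called probes (blue) are the lowest, led by Cpr49Ag at -1.32, and Cpr60D is the highest at 0.98 with an SE of 0.38.

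The 18 members not called ranged from -0.65 for Lcp65Ac (SE 0.45) to 0.98 for Cpr60D (SE 0.38, adjusted p = 0.205, limma). Cpr60D read 1.21, 1.36, 1.10 and -0.28 in su(Hw)/Df larvae, against 0.06, 0.61, 0.40 and -0.16 in su(Hw)/+ and 0.21, -1.51, 0.37 and -1.03 in Df/+. On 3 of the 4 null arrays it was above every heterozygote array, and on replicate 4 it was within their range. TwdlT, a Tweedle gene, had 0.52, 0.00, -0.71 and -0.84 in su(Hw)/Df larvae, against -0.04, 0.64, 0.86 and 0.44 in su(Hw)/+ and 0.15, 0.40, 0.56 and -0.12 in Df/+. The groups overlapped, and its difference of -0.62 (SE 0.25) had an adjusted p of 0.244 (limma). The pupal genes Pcp and Edg91 gave differences of 0.01 (SE 0.26) and 0.38 (SE 0.30).

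The second comparison set each genotype against the wild-type pool, which left the pool's own spread out. In su(Hw)/Df larvae 31 members were tested, and 3 larval Lcp genes were higher and 4 Cpr probes and 1 Tweedle gene lower than the pool, which is 8 of 31 where 27.7% of all 9554 probes were called (14.5% higher, 13.2% lower). The member median was -0.09, beside 0.03 for all probes. In su(Hw)/+ 3 of 30 were higher and 5 lower (28.3% of all probes called, 14.6% higher and 13.7% lower), and in Df/+ 1 of 32 was higher and 4 lower (19.7%, 9.38% higher and 10.3% lower). The comparisons share the pool, so their calls are not independent. By class in su(Hw)/Df larvae, 3 of 5 Lcp probes tested were higher, 4 of 19 Cpr probes and 1 of 4 Tweedle probes were lower, and Gasp and both pupal genes were not called. Of the Lcp probes, 2 of 6 tested were higher in su(Hw)/+ and 1 of 3 in Df/+. Each of these tests needed values only in its own genotype, so the probes differed between genotypes. Only 5 of the 12 Lcp probes entered in the null, which does not describe the class. Lcp65Ab2 counts among the 8 called and the 3 higher. Its probe had no platform name and was named from the study's list of genes changed against wild type. It thus became a member only because it had changed, and its call here is no separate support.

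The largest ratio was that of Lcp65Ab2, the member that entered only through the study's list of changed genes, so a large ratio was given in advance. This gene of the larval cuticle cluster on 3L has a near-identical neighbour, so that the probe may read more than 1 transcript. It gave 3.74, 3.98 and 3.99 in su(Hw)/Df larvae on the 3 arrays with a value, against 1.16, 3.05, 3.40 and 1.72 in su(Hw)/+ and a single value of 1.62 in Df/+. The null values were above every heterozygote value. The ratio to the pool was 3.90 (SE 0.38, adjusted p = 0.000107) in su(Hw)/Df and 2.33 (SE 0.32, adjusted p = 0.00101, limma) in su(Hw)/+. The null exceeded su(Hw)/+ by 1.57 (SE 0.49, adjusted p = 0.166, limma), which was not a call, and the comparison with both heterozygotes could not be made.

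Lcp65Aa, in the same run, was about a doubling above the pool in all 3 genotypes. Its values were 1.12, 0.89, 0.77 and 1.196 in su(Hw)/Df larvae, against 0.51, 1.66, 0.51 and 1.42 in su(Hw)/+ and 0.63, 0.89, 1.63 and 0.96 in Df/+. The groups overlapped fully, with means of 0.99 ± 0.20 in the null, 1.02 ± 0.60 in su(Hw)/+ and 1.03 ± 0.42 in Df/+ (SD, n = 4 each). The null minus the heterozygotes was -0.03 (SE 0.25). Each genotype was called against the pool (adjusted p = 0.00354 for the null, 0.00272 for su(Hw)/+ and 0.00460 for Df/+, limma).

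Lcp9, a larval cuticle gene on 2R away from this run, read 2.07, 1.71, 2.28 and -0.37 in su(Hw)/Df larvae, against 2.22, 1.10 and -0.04 in su(Hw)/+ and 0.35 and -0.22 in Df/+. In each of the null and su(Hw)/+, 1 low array stretched the group over more than 2 log2 units. The null ratio of 1.42 (SE 0.43, adjusted p = 0.0342, limma) was no longer called without replicate 1, 2 or 3, and was 2.02 without replicate 4.

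TwdlE, a Tweedle gene, was below the pool at -0.99, -0.56, -1.09 and -1.19 in su(Hw)/Df larvae, against -0.10, -0.41, -0.13 and -0.66 in su(Hw)/+ and -0.74, -0.49, -0.999 and -1.19 in Df/+. The null and Df/+ covered nearly the same range. Most su(Hw)/+ values lay higher, but the ranges overlapped, its -0.66 lying below the -0.56 of the null and the -0.49 of Df/+. The ratio to the pool was -0.96 (SE 0.15, adjusted p = 0.000486) in su(Hw)/Df, -0.85 (SE 0.15, adjusted p = 0.00232) in Df/+ and -0.32 (SE 0.15, adjusted p = 0.114, limma) in su(Hw)/+. The null minus the heterozygotes was -0.37 (SE 0.18, adjusted p = 0.328, limma).

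The 2 probes of Cpr49Ac, a neighbour of Cpr49Ag, gave low ratios in every genotype. Probe 2 averaged -0.40 ± 0.22 in null larvae, -0.50 ± 0.13 in su(Hw)/+ and -0.33 ± 0.29 in Df/+ (SD, n = 4 each), and the null minus the heterozygotes was 0.02 (SE 0.16). Its call against the pool in the null (adjusted p = 0.0361, limma) was lost when replicate 1, 2 or 4 of the null was left out. In su(Hw)/+ probe 2 was also called below the pool (-0.50, adjusted p = 0.0124, limma), in each of 12 fits without 1 array too. Probe 1 was not called against the pool in the null (-0.41, SE 0.23, adjusted p = 0.216), was called lower in su(Hw)/+ (-0.70, SE 0.20, adjusted p = 0.0220, limma) and was not called in Df/+ (-0.57, adjusted p = 0.0670). The null differed from the heterozygotes by 0.22 (SE 0.27). The remaining members of the 49A run had few values: Cpr49Aa gave 0.58, -0.70 and 1.35 in su(Hw)/Df larvae, against a single -0.63 in su(Hw)/+ and -0.04 and -0.29 in Df/+. Among the 3 probes of the run that could be tested against the heterozygotes, only that of Cpr49Ag was called.

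**Figure D3:**
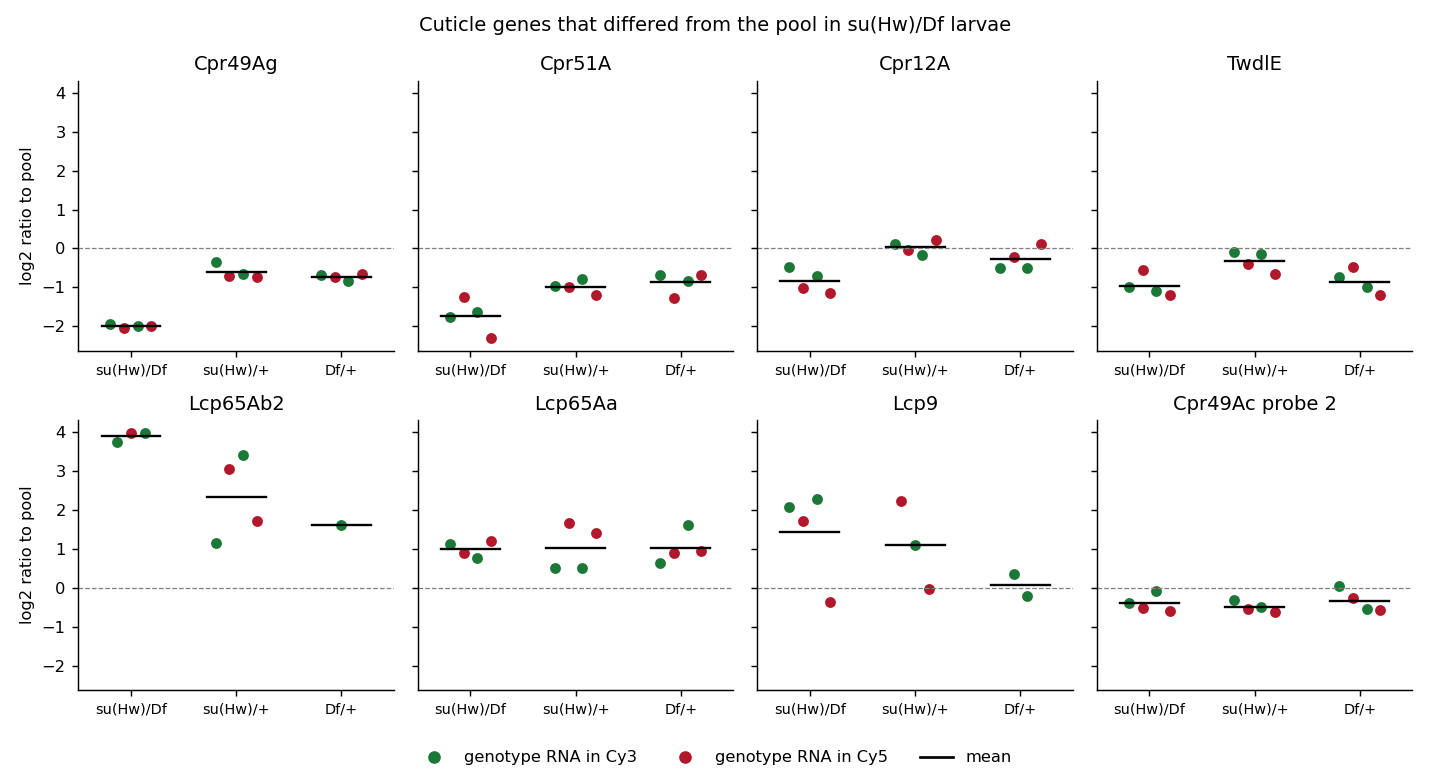
Log2 ratio to the pool on each larval array (y axis) by genotype (su(Hw)/Df left, then su(Hw)/+ and Df/+) for the 8 probes called in su(Hw)/Df against the pool, with the genotype RNA in Cy3 (green) or Cy5 (red) and the mean as a line. The 4 null values of Cpr49Ag, near -2, lie apart from both heterozygotes, while those of Lcp65Aa overlap them.

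Other members, besides probe 1 of Cpr49Ac, were called in a heterozygote and were either not called or not tested in the null. Cpr67B was below the pool in su(Hw)/+ larvae (-1.65, -0.34, -1.48 and -1.75, a mean of -1.30, SE 0.39, adjusted p = 0.0230, limma) and had -1.01, 0.38, -0.72 and -2.40 in su(Hw)/Df and -0.99, -2.31, -0.98 and -0.23 in Df/+, so that all 3 genotypes were mostly negative with a wide spread. Cpr56F was above the pool in su(Hw)/+ (mean 0.71 ± 0.21, adjusted p = 0.0144, limma), with 0.14 ± 0.52 in su(Hw)/Df and 0.45 ± 0.44 in Df/+ (SD, n = 4 each). Cpr47Eg was below the pool in Df/+ at -0.47, -1.12 and -1.47 (adjusted p = 0.0254, limma). It had a single value of 0.06 in su(Hw)/+ and none in the null, so neither could be tested. Between the heterozygotes, Df/+ minus su(Hw)/+, 0 of 23 members were called by limma (0.272% of all probes called). An unadjusted p under 0.05 (limma) was found for 2 of the 23 members and 944 of all 8464 probes.

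Few genes of any run of neighbours could be tested side by side. In the 65A run of 15 genes, from Lcp65Ag3 to Acp65Aa, 2 probes could be tested against the heterozygotes and neither was called. Against the pool 2 of 5 were higher, where 14.5% of all probes were. Lcp65Ab2, which entered the set only through the study's list of changed genes, was among those higher. In the 47E run of 7 genes 1 could be tested and was not called. The 13 Tweedle genes from TwdlM to TwdlQ on 3R and the 7 genes from Edg84A to Ccp84Aa gave none that could be tested against the heterozygotes. The ecdysone-dependent genes Edg78E and Edg84A had a single value each in larvae (-0.47 and 1.05, both in su(Hw)/+) and none in discs. Acp65Aa, an adult cuticle gene, had no value in null larvae, 0.69 and 0.85 in su(Hw)/+ and -0.44 and 0.65 in Df/+.

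In wing discs the same questions had fewer probes behind them. No cuticle gene of the null was called relative to both heterozygotes: 10 members were tested and 0 called by limma, where 0.0901% of all 5550 probes were called. The per-probe test without moderation also called 0. An unadjusted p under 0.05 (limma) was found for 2 of the 10 members, Gasp and Cpr49Ag, and for 240 of the 5550 probes. The member median was -0.02, with 5 above and 5 below 0, beside 0.10 over all probes. No member was without overlap between null and heterozygote arrays (0.432% of all probes were).

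Against the pool 2 members fell in su(Hw)/Df discs, Cpr49Ag and Gasp, of 24 tested (0.873% of all probes called, 0.346% higher and 0.526% lower). Cpr49Ag read -1.49, -2.02, -1.45 and -0.92 in su(Hw)/Df discs, against -1.40, -1.15, -1.19 and -0.92 in su(Hw)/+ and -0.66, 0.14, -0.93 and -0.27 in Df/+. The null covered the whole range of su(Hw)/+ and lay mostly below Df/+. Its ratio to the pool was -1.47 (SE 0.19, adjusted p = 0.000521) in su(Hw)/Df, -1.16 (SE 0.19, adjusted p = 0.00670, limma) in su(Hw)/+ and -0.43 (SE 0.19, adjusted p = 0.818) in Df/+. The null minus the mean of the heterozygotes was -0.67 (SE 0.23, adjusted p = 0.923, limma).

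Gasp read -0.66, -0.89, -1.34 and -1.0 in su(Hw)/Df discs, against -0.14, -0.85, -0.57 and -0.71 in su(Hw)/+ and -0.07, -0.44, 0.33 and -0.20 in Df/+. The null lay below Df/+ on every array and overlapped su(Hw)/+. The ratio to the pool was -0.97 (SE 0.16, adjusted p = 0.00490, limma), and the null minus the heterozygotes was -0.64 (SE 0.20, adjusted p = 0.923, limma). In larvae the Gasp ratio was near 0 in every genotype, at -0.02 ± 0.18 (n = 4) in su(Hw)/Df, 0.10 ± 0.04 (n = 3) in su(Hw)/+ and 0.09 ± 0.18 (n = 4, SD) in Df/+. In su(Hw)/+ discs 1 of 12 members was called (Cpr49Ag, lower, 0.595% of all probes called). In Df/+ discs limma called 0 of 28 members (0.163% of all probes), and between the heterozygotes 0 of 11 (0.0169%). An unadjusted p under 0.05 (limma) was found in Df/+ for 4 of the 28 members and 444 of 7347 probes. Between the heterozygotes it was found for 3 of 11 members and 128 of 5928 probes. With the null set against 1 heterozygote at a time, limma called 0 of 10 members against su(Hw)/+ (0.0171% of all probes) and 0 of 15 against Df/+ (0.195%). An unadjusted p under 0.05 (limma) was found against su(Hw)/+ for 0 of 10 members and 152 of 5848 probes. Against Df/+ it was found for 4 of 15 members and 272 of 6144 probes.

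Other members with large disc ratios varied too much to be called. TwdlE read 1.66, 2.39 and 0.18 in su(Hw)/Df discs, against 2.52, 0.96 and -0.33 in su(Hw)/+ and 0.09, 0.03, -0.98 and -0.36 in Df/+. It was above 0 on each null array with a value, whereas in larvae it was below 0 on all 12 arrays. Cpr78E, with all 24 values, read -1.05, -1.44, -0.72 and -0.26 in su(Hw)/Df discs, against -1.09, -0.90, -1.86 and 0.05 in su(Hw)/+ and -0.31, 0.07, 0.29 and -0.02 in Df/+. Its ratio to the pool was -0.87 (SE 0.24, adjusted p = 0.174) in su(Hw)/Df and -0.95 (SE 0.24, adjusted p = 0.146, limma) in su(Hw)/+.

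**Figure D4:**
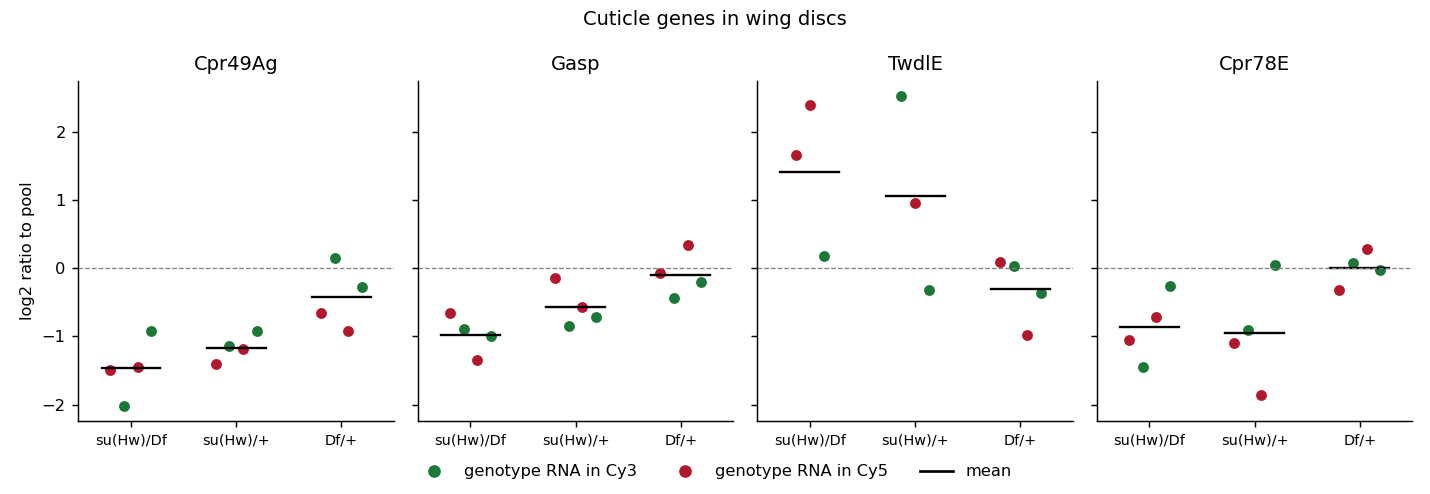
Log2 ratio to the pool on each wing disc array (y axis) by genotype for Cpr49Ag, Gasp, TwdlE and Cpr78E, with the genotype RNA in Cy3 (green) or Cy5 (red) and the mean as a line. Cpr49Ag and Gasp have all 4 null values below 0, and TwdlE spreads over more than 2 log2 units in the null and in su(Hw)/+.

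The null change itself was compared between tissues, as su(Hw)/Df minus heterozygotes in larvae minus the same in discs. Only 8 members could be tested and 0 were called by limma, as were 0 of all 5105 probes (3 members and 225 probes had an unadjusted p under 0.05). The 3 members were Cpr49Ag (-0.65, SE 0.26), TwdlE (-1.40, SE 0.57) and Gasp (0.53, SE 0.24), each with an adjusted p of 0.926 or more. A tissue difference of these genes was thus not shown.

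Genes with related functions were set beside the members. Of 26 genes of chitin synthesis and assembly tested in larvae against the heterozygotes, Idgf6, a chitinase-like growth factor gene, rose (1.04, SE 0.21, adjusted p = 0.0146) and Cht2, a chitinase gene, fell (-1.02, SE 0.18, adjusted p = 0.00701, limma). Cht2 also fell in discs (-1.31, SE 0.18, adjusted p = 0.00970, limma), as the only 1 of the 16 tested there. Of 11 genes of the apical matrix and other cuticle-linked genes, Vajk2 (-1.05) and Vajk3 (-0.95) fell in larvae (adjusted p = 0.00450 and 0.00299, limma), and of 9 tested in discs none was called. Of 13 genes of tanning and pigment and 10 ecdysone-timed regulators none was called in larvae, nor of 7 and 9 in discs. Over all probes 1.09% were called higher and 1.76% lower in larvae, and 0.0901% in either direction in discs. A list of this size without a call thus says little.

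The cuticle values were also compared between dye orientations and between single arrays. The difference of Cy3 minus Cy5 arrays was fitted in a model that also held a mean per genotype. In larvae this difference was above 0 for 21 of 24 members, with a median of 0.34, beside 0.08 over all 8856 probes (2 members, or 8.33%, and 11.2% of all probes were called). The share called was thus lower among members than among all probes. How many of all probes lay above 0 was not counted, so the 21 of 24 has no matching share. In discs the difference had a median of -0.17 for 11 members, 5 of them positive, and -0.07 for all probes (1 member, or 9.09%, and 4% of all probes were called). Cpr57A was extreme. In larvae its 6 Cy3 values ran from 0.63 to 1.32 and its 6 Cy5 values from -2.52 to -1.37, whatever the genotype, a difference of 3.11 (adjusted p = 1.40e-06, limma). In discs the 5 Cy3 values ran from 0.37 to 3.01 and the 6 Cy5 values from -2.13 to -0.31 (fitted difference 2.51, adjusted p = 0.0143, limma). The genotype means of Cpr57A average these opposite signs. The other member called was probe 1 of Cpr49Ac in larvae (0.68, adjusted p = 0.0145, limma), and the dye difference of Cpr49Ag was 0.08.

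**Figure D5:**
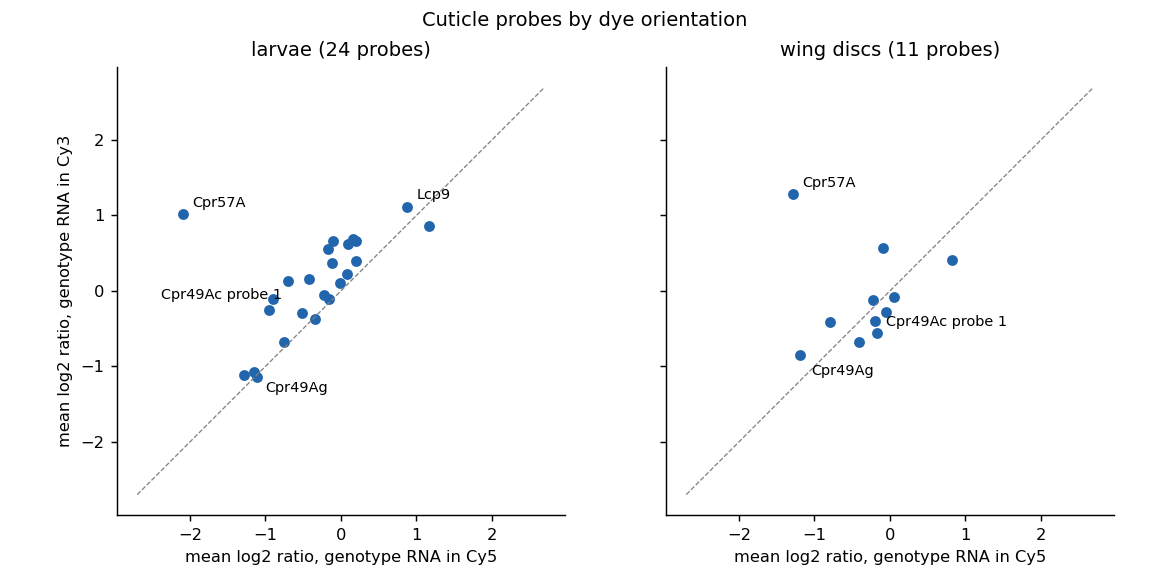
Mean log2 ratio with the genotype RNA in Cy3 (y axis) against that with the genotype RNA in Cy5 (x axis), 1 point per cuticle probe, in larvae (24 probes) and wing discs (11 probes), all genotypes together. These are plain means, not the fitted differences of the text. The dashed line marks equal means, and Cpr57A lies far above it in both tissues.

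Within each larval genotype 1 Cy5 array held most of the lowest member values. In su(Hw)/Df replicate 4 was the lowest of the 4 arrays for 16 of 20 members with 4 values (80.0%), against 34.6% of all probes. In su(Hw)/+ it was replicate 4, for 12 of 19 members (63.2% against 25.3%), and in Df/+ replicate 2, for 12 of 22 (54.5% against 28.9%). The median over the members measured on an array ran from -1.17 to 0.35 across null larval arrays, from -0.25 to 0.70 across su(Hw)/+ and from -0.74 to 0.19 across Df/+. The median over all probes ran from -0.13 to 0.14 in the null, from -0.11 to 0.27 in su(Hw)/+ and from -0.10 to 0.08 in Df/+. The member medians thus ran more widely, but each rested on 36 to 60 probes, not the same ones on every array. The all-probe medians rested on 9110 to 11673 probes, normalized together. These ranges therefore cannot show whether cuticle genes as a group varied more between arrays. What set the low arrays apart was not tested.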

How the data were processed

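The authors deposited 1 log2 ratio per spot and array, normalized by them with VSN (12 larval arrays together, 12 disc arrays together), dye swaps already turned. Disc RNA was amplified before labelling. Log base and direction were checked against the study's tables (3913 of 3913 genotype means within 0.01). Of 15158 probes, 714 printed in 3 or 4 spots were left out as controls. Of 14444 analysed, 96 had several symbols and 1704 none. Of 12644 with 1 symbol, 12603 matched a Release 6 gene table, used for names, arms and gene order. 1 member (Lcp65Ab2) was named from the study's tables. These list genes changed against wild type and all genes of 1 region on 2L, so this gene of 3L came from the changed genes. Lcp1 to Lcp4 were not analysed here, nor were sequences.

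Models of 3 genotype means per tissue were fitted in limma 3.58.1 (R 4.3.3), on probes that had 3 or 4 values for every genotype of the comparison, with Benjamini-Hochberg adjustment over all of them and a threshold of 0.05. Tables used Python 3.11.15 with pandas 2.3.3. The steps were tested on simulated data. Alternatives were other filters on missing values, centring, dye or replicate number in the model, a robust prior, unmoderated tests, 1 heterozygote at a time, 1 probe per gene, and single or sparse arrays left out. Spot intensities were not used, so signal over background is unknown, and the number of arrays limits precision. p-values rest on the spread between samples within groups, pooled over all groups fitted together. In limma this spread is also moderated over all probes. The p-value of 1 genotype therefore draws on the spread of the others too.

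Members and lists were chosen with earlier results of these data known. Members were named if called against the heterozygotes, if called against the pool with 1 sign on every null array (the 8 largest each way per tissue), or as class genes (Acp65Aa, Edg78E, Edg84A, Edg91, Lcp9, Pcp, Gasp). The others (Cpr60D, TwdlT, Lcp65Ac, Cpr67B, Cpr56F, Cpr47Eg, Cpr49Aa, Cpr49Ac probe 1, Cpr78E, Cpr57A) were chosen after their values were seen. 0 value columns were left unused.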

Additional observations from a re-analysis of the deposited data

Results flagged for a closer look

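Of 95 groups of 4 values examined, 2 held a value far from the other 3, where chance gives about 1 in 20. Both were on su(Hw)/Df larval replicate 4: Cpr60D at -0.28, with the other null arrays at 1.10 to 1.36, and Edg91, an ecdysone-dependent gene, at -0.89, with the others at 0.35 to 0.54. This array also held the lowest value of 16 of the 20 members with 4 null values.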

How the results depend on the processing

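The larval fall of Cpr49Ag against the heterozygotes was called under every alternative tried (-1.34 to -1.28 with single arrays left out, highest adjusted p 0.000613, limma). In that comparison the members called, 3 in all, numbered 1 with the unmoderated per-probe test, 1 against Df/+ alone, and 1 to 2 with single arrays left out (1 without su(Hw)/Df replicate 3 or 4, su(Hw)/+ replicate 1 or 2, or Df/+ replicate 4). The Cpr51A call was lost with the per-probe test (adjusted p = 0.0678) and against su(Hw)/+ alone (0.111) or Df/+ alone (0.0647), and the Cpr12A call with arrays centred on their median (0.0667), with a replicate block (0.0526), with 2 values enough (0.0535), with the per-probe test (0.0599) and against Df/+ alone (0.198).

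Against the pool in larvae, 5 to 9 members were called in su(Hw)/Df with single arrays left out (5 without su(Hw)/Df replicate 1), beside 8. A cut close to the study's first, looser one was applied to the unmoderated per-probe test (its p of 0.01 or less and a log2 size of at least 0.8). The study's own test was CyberT, and its stricter p and its filter on the heterozygotes were not applied. This cut called 3 in su(Hw)/+ (7.59% of all probes) and 3 in Df/+ (4.17%). In Df/+, dye as a covariate called 11 (28.2% of all probes) and a replicate block 8 (26.6%). With the per-probe test Lcp9 was not called (adjusted p = 0.112). In su(Hw)/+ discs 0 members were called with the per-probe test (Cpr49Ag adjusted p = 0.0778), 2 with that cut (0.747% of all probes), and 0 to 2 with single arrays left out (0 without su(Hw)/+ replicate 1, 2 without replicate 4). The calls of Cpr49Ag and Gasp in su(Hw)/Df discs held with every single array left out and without the 3 sparse arrays (adjusted p = 0.00835 and 0.0292, limma). The disc median against the heterozygotes was -0.39 with 4 values required and -0.60 to -0.027 with single arrays left out, and against the pool -0.36 to 0.0050, so its sign turned without su(Hw)/Df replicate 4. The larval median against the pool likewise ran from -0.21 to 0.13, the last without su(Hw)/Df replicate 4. No call changed direction. The su(Hw) call in discs was lost with the per-probe test (adjusted p = 0.345), against either heterozygote alone and in 6 of 12 cases with 1 array left out. The causes were not tested.

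Replicate numbers coincided with dye orientation. Same-numbered samples deviated together (r over 0.1) in 10 of 12 pairs in larvae (lowest r -0.03) and 7 of 12 in discs (lowest -0.12), not in every pair, so the numbers were not taken as pairs. The replicate block called 2 members in the larval null comparison (3.49% of all probes) and 10 in su(Hw)/Df against the pool (34.4%). Missing values limit the result: against the heterozygotes only 21 of 120 probes could be tested in larvae and 10 in discs, and signal over background is unknown.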
